A study of Mus musculus with 32 samples.

Results

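Lhx2 was followed across all 8 groups of the series. It encodes a LIM-homeodomain transcription factor, and 1 of the 33012 noncontrol probes of the array could be matched to it (probe 481098). The gene was chosen by its signal and S/N on these same arrays, which appeared with rosiglitazone (RSG) in immature dendritic cells (iDCs), so its levels and differences are given as a description and were not tested. Of the probes, 16620 were detected well enough in at least 1 group to be tested. The Lhx2 probe was among them only through RSG-treated iDCs, the cells for which it was chosen.

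LIM-homeodomain factors bind DNA through a homeodomain and recruit partner proteins through their paired LIM domains. LHX2 is known for its roles in forebrain, eye, limb and hair follicle development, and in hematopoiesis it is known for growth of immature progenitors when it is expressed experimentally. PPARγ is a nuclear receptor that binds DNA with RXR and is activated by RSG, a thiazolidinedione agonist used as an antidiabetic drug. In macrophages and dendritic cells, IL-4 signaling through STAT6 is known to raise the response to PPARγ agonists.

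The cells were grown from bone marrow of 8 C57Bl/6 mice, and every mouse carried LysCre, a Cre recombinase expressed from the lysozyme M locus in myeloid cells. Mice 1 to 4 were Pparg+/- LysCre and so kept a working Pparg allele beside a null allele, while mice 5 to 8 were Pparg fl/- LysCre, with the same null allele and a loxP-flanked allele that Cre removes in myeloid cells. Each mouse gave IL-4 macrophages, grown with M-CSF and IL-4, and iDCs, grown with GM-CSF and IL-4, all at 20 ng/ml and for 9 days per the labels, and each culture received vehicle (DMSO:ethanol) or 1 μM RSG. This makes 32 single-color Applied Biosystems arrays in 8 groups of 4, read by chemiluminescence, with the 4 arrays of a number coming from 1 mouse. A probe counted as detected at a signal-to-noise ratio (S/N) of at least 3, and 13595 to 16683 probes were detected per array. The arrays were scanned on 4 days, each with 2 mice of 1 genotype, so scan day and genotype cannot be told apart. With 4 arrays per group, precision is set by the array number.

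Most probes carry only a gene model identifier, and 317 of the 33012 (0.960%) could be given a symbol. Of 151 genes in 15 lists covering LIM-homeodomain factors, their cofactors, the PPARγ receptor complex and its lipid targets, blood transcription factors and cell type markers, 3 matched a probe: Lhx2, Cebpb and Hba-a1. Lhx2 was the only match among the 12 LIM-homeodomain genes, and none of the 10 LIM-only proteins and LIM cofactors matched. No macrophage or dendritic cell marker and no probe for Pparg matched either, so neither the cell type labels nor the genotypes were checked against these arrays.

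Lhx2 lies on mouse chromosome 2 at chr2:38339271-38369737 (GRCm38.p6), and the array files list its probe under NM_010710.2. RefSeq gives promoter windows for both of its transcription start sites on the plus strand. The first 250 bases of each window, which end where the window's own start site begins, are shown so that the upstream sequences of the alternative starts can be compared. The first runs over chr2:38339031-38339280, of which the last 10 bases lie inside the annotated gene span, and the second, wholly inside that span, over chr2:38351058-38351307. Capitals mark the GC box GGGCGG, the core sequence recognised by Sp1-family factors.
Lhx2 first start: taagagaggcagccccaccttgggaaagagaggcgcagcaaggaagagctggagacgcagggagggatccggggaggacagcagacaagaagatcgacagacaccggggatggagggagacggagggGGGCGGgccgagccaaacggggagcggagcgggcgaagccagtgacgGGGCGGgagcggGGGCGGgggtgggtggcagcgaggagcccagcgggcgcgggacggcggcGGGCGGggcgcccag
Lhx2 second start: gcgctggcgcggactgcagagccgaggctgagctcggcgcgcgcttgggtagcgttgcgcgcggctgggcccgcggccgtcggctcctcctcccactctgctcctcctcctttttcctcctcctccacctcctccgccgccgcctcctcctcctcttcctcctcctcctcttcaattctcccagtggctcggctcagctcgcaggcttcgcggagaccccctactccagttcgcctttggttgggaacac

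The first window held 4 GC boxes and the second none, and 32.7% of the 32851 mouse promoter windows of this length held at least 1 on either strand. Both windows were rich in G and C, at 72.8% and 68.4%, against a median of 52.4% over all windows. The PPAR:RXR direct repeat AGGTCANAGGTCA, searched on both strands, had no match in either window, and it is present in 0.0335% of all windows. Its repeated element AGGTCA, which the direct repeat contains, also had no match (14.0% of all windows hold it). The STAT6 site TTCNNNNGAA had no match either (5.85% of all windows). The homeodomain core TAATTA, bound by LIM-homeodomain factors, was absent as well (4.84% of all windows). A missing match says only that these letters are not in these 250 bases.

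Without RSG, Lhx2 was not detected in any of the 16 arrays. The vehicle S/N ran from -3.08 to 1.80, and on 13 of the 16 arrays the deposited signal was the spot's own standard deviation, which is a noise level and not a measurement. The linear vehicle signals lay between 33.5 and 319 arbitrary units. RSG-treated Pparg+/- LysCre iDCs were the only group in which every array detected the probe.

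In vehicle-treated Pparg+/- LysCre iDCs the signals were 40.9 in mouse 1, 163 in mouse 2, 85.3 in mouse 3 and 119 in mouse 4. With RSG they were 2461 in mouse 1, 3944 in mouse 2, 5508 in mouse 3 and 2614 in mouse 4. The S/N with RSG was 21.8, 20.2, 39.6 and 15.7 in the same order. The 4 RSG-treated cultures lay far above the 4 vehicle-treated ones, with no overlap. In bulk cultures, fewer cells of a type and less RNA per cell cannot be told apart, so a signal here is an average over the culture.

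After log2 transformation and quantile normalization over the 32 arrays, the mean was 6.49 ± 0.86 (SD, n = 4) with vehicle and 11.81 ± 0.43 (SD, n = 4) with RSG in Pparg+/- LysCre iDCs. The difference within a mouse was 6.04 in mouse 1, 4.48 in mouse 2, 6.19 in mouse 3 and 4.57 in mouse 4, on the log2 scale, with a mean of 5.32 ± 0.92 (SD, n = 4). Since vehicle-treated cells gave only noise, the fold is given against a floor. Taking for each vehicle array the lowest level of any detected probe, or the Lhx2 value where that was higher, Lhx2 was 30.7-fold higher with RSG. This is not a strict lower bound, since that level belongs to other spots and does not limit what the Lhx2 spot could hold. With a stricter floor, 3 standard deviations of the Lhx2 spot on each vehicle array, Lhx2 was at least 15.2-fold higher. Single mice gave bounds from 6.93-fold to 24.0-fold.

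For background, the median difference of the 16620 tested probes was 0.02, and 513 probes (3.09%) were called higher and 486 (2.92%) lower with RSG in these cells by limma, where a call needs both an adjusted p (Benjamini-Hochberg) under 0.05 and a shift of 1.5-fold or more. With median scaling of each array the split was 613 higher and 327 lower. Moving from undetected on 4 vehicle arrays to detected on 4 RSG arrays was rarer, since 64 of 33012 probes (0.194%) did so. Lhx2 was 1 of these 64, and the gene was chosen for this contrast. Mice 1 and 2 shared a scan day and mice 3 and 4 another, and the rise was present in both mice of each day.

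**Figure D1:**
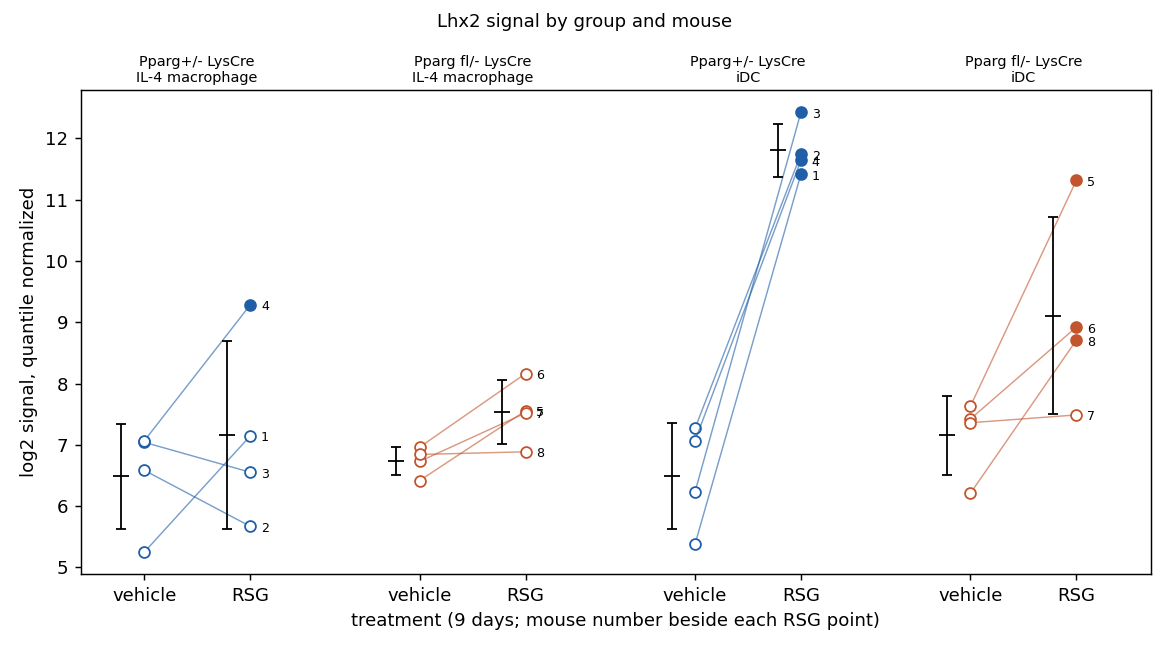
Log2 quantile-normalized Lhx2 signal (y axis) in each genotype, cell type and treatment (x axis), with 1 point per array, lines joining the arrays of a mouse and numbers giving the mouse. Filled points have an S/N of at least 3, open points are noise levels, and black bars give the mean and SD of the 4 arrays; the Pparg+/- LysCre iDCs with RSG sit between 11.42 and 12.43, above all other points.

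In Pparg fl/- LysCre iDCs, Lhx2 was also detected with RSG, but at lower and more variable levels. The vehicle signals were 319 in mouse 5, 228 in mouse 6, 186 in mouse 7 and 76.3 in mouse 8. With RSG the signals were 1482 in mouse 5, 660 in mouse 6, 143 in mouse 7 and 670 in mouse 8. The probe was detected in mice 5, 6 and 8, at an S/N of 8.30, 4.55 and 4.09, and not in mouse 7, at 1.35. The RSG and vehicle ranges overlapped through mouse 7 on both the linear and the normalized scale.

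The normalized means were 7.16 ± 0.64 (SD, n = 4) with vehicle and 9.11 ± 1.60 (SD, n = 4) with RSG. Within a mouse the log2 difference was 3.69 in mouse 5, 1.499 in mouse 6, 0.13 in mouse 7 and 2.50 in mouse 8, with a mean of 1.95 ± 1.51 (SD, n = 4). All 4 values were above 0, and the SD was larger than the 0.92 of Pparg+/- LysCre iDCs. Against the lowest detected level on the vehicle arrays the ratio was 3.64-fold, and against 3 standard deviations of the vehicle spots it was 1.27-fold. Neither is a strict lower bound, since the RSG mean includes the undetected array of mouse 7. Mice 5 and 8 exceeded the stricter floor, by 4.28-fold and 1.85-fold, and mice 6 and 7 did not.

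In Pparg fl/- LysCre iDCs, 61 of the 16620 tested probes (0.367%) were called higher with RSG and 54 lower. These 115 calls became 0 with the methods' t-test, 6 with the 8 arrays alone and 27 to 94 when 1 mouse was left out (27 without mouse 6). Going from undetected on all 4 vehicle arrays to detected on at least 3 RSG arrays was seen for 104 of 33012 probes (0.315%) in this genotype. Only 7 probes (0.0212%), Lhx2 among them, met the detection rule of each genotype. These rules differed, with all 4 RSG arrays required in Pparg+/- LysCre iDCs and at least 3 in Pparg fl/- LysCre iDCs. They match the numbers of arrays that detected Lhx2, so its place among the 7 was fixed in advance and is no added support.

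**Figure D2:**
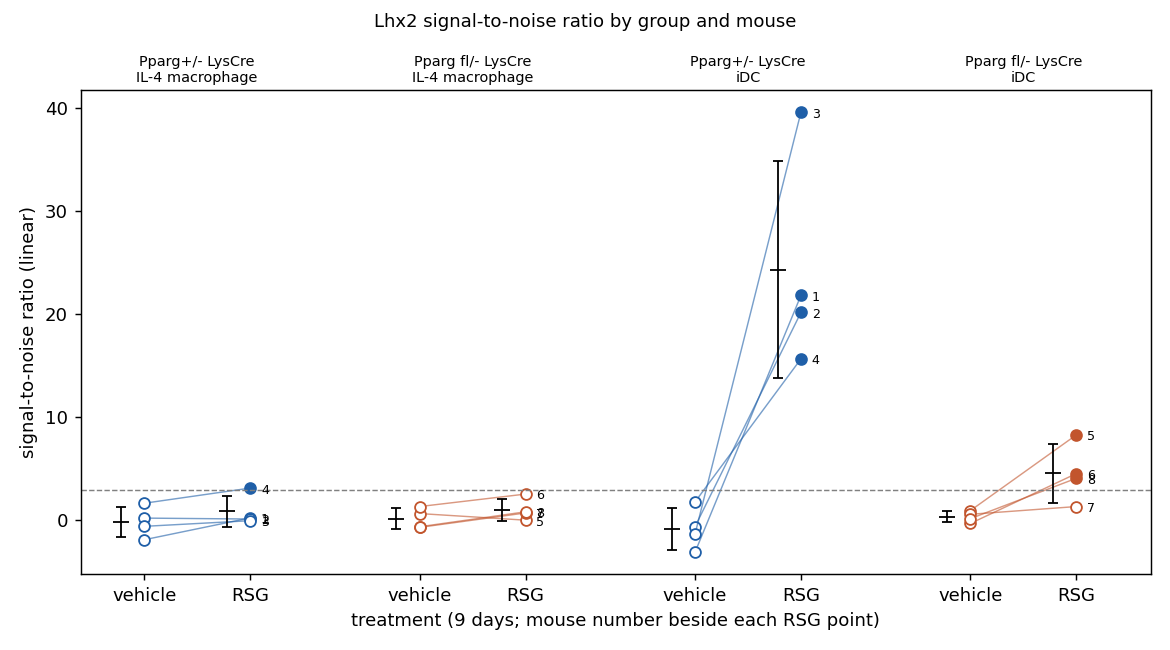
Lhx2 S/N (y axis, linear) on each array by genotype, cell type and treatment (x axis), with the arrays of a mouse joined, filled points at or above the detection threshold of 3 (dashed line), and black bars giving the mean and SD of 4 arrays. The highest value was 39.6 in mouse 3, and Pparg fl/- LysCre iDCs with RSG reached at most 8.30.

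Between the genotypes, RSG-treated iDCs differed by -2.70 on the log2 scale (Pparg fl/- LysCre minus Pparg+/- LysCre), or 6.49-fold between the measured means. In Pparg fl/- LysCre cells 3 of the 4 arrays measured the probe above background and mouse 7 enters at a noise level, so 6.49-fold is not a lower bound. With mouse 7 at 3 standard deviations of its spot, Lhx2 was at least 5.37-fold lower in Pparg fl/- LysCre cells. The ranges did not overlap, but mouse 5, at 11.32, came within 0.10 of the lowest Pparg+/- LysCre array at 11.42. This distance depended on the scaling, since with median scaling the values were 11.01 and 11.53, and the linear signals were 1482 and 2461. The other Pparg fl/- LysCre arrays lay between 7.49 and 8.92. Without mouse 5 the mean of the remaining 3 was 8.37 ± 0.77 (SD), and the difference was -3.43, or 10.8-fold between the measured means. With mouse 7 at 3 standard deviations of its spot, the bound was then 8.40-fold. The array of mouse 5 also had the fewest detected probes of all 32, at 13595, and its scan day was shared with mouse 6, whose value was 8.92. Whether array quality or scan day had a part in the level of mouse 5 was not tested. Of the 16620 tested probes in this comparison, 546 were called higher and 560 (3.37%) lower. With median scaling of each array the split was 373 higher and 1165 lower. The 1106 calls of the main fit became 1 with the methods' t-test and 46 with the 8 arrays alone. Leaving out 1 mouse gave 218 to 2654 calls (2654 without mouse 5).

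For Lhx2, the RSG rise in iDCs was largest in mouse 5, then in mice 8, 6 and 7. Over the 512 other probes called higher with RSG in Pparg+/- LysCre iDCs, the median RSG rise was 0.55 in mouse 5, 0.39 in mouse 8, 0.32 in mouse 6 and 0.23 in mouse 7, on the log2 scale, which is the same order as for Lhx2. In mice 1 to 4 these medians were 1.12, 1.03, 1.13 and 1.07, but those values chose the 512 probes. The gene models mCG7876.2 and mCG141486, described below, had the same order in mice 5 to 8, and the named probes described below did not. These gene models were picked for their likeness to Lhx2 over these same arrays, so their shared order is no added support. Aldh3a1 was highest in mouse 8 (1.48) and lowest in mouse 6 (-0.75), and Sowahc was highest in mouse 7 (0.38) and lowest in mouse 5 (0.29). Aldh3a2 (0.26) and Cebpb probe 640455 (0.51) were highest in mouse 5 and lowest in mouse 8. Ramp1 was highest in mouse 8 and lowest in mouse 7, and Cebpb probe 450590 highest in mouse 6 and lowest in mouse 5. What set the order was not tested.

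In IL-4 macrophages Lhx2 stayed at or near the noise. The vehicle signals of Pparg+/- LysCre macrophages were 33.5, 84.9, 98.7 and 130 in mice 1 to 4, and with RSG they were 179, 50.2, 97.3 and 464. The 464 of mouse 4 was the one detected macrophage array, at an S/N of 3.14, just above the threshold. The log2 difference was 1.90 in mouse 1, -0.91 in mouse 2, -0.49 in mouse 3 and 2.22 in mouse 4, so 2 mice lay above 0 and 2 below, and the groups overlapped.

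In Pparg fl/- LysCre macrophages the vehicle signals were 76.9, 143, 87.6 and 91.1 in mice 5 to 8, and with RSG 234, 215, 189 and 126. None of these 8 arrays detected the probe, and the array nearest to the threshold, mouse 6 with RSG, had an S/N of 2.56. The log2 differences were 1.14, 1.20, 0.79 and 0.04 in mice 5 to 8. All were above 0, but each lay between values at noise level, so no fold is given. By limma, 95 probes (0.572%) were called higher and 104 lower with RSG in Pparg+/- LysCre macrophages (46 and 143 with median scaling). In Pparg fl/- LysCre macrophages 0 (0.0%) were called, and 497 probes had an unadjusted p under 0.05 in either direction. There the methods' t-test also called 0 after adjustment, while limma called 5 with the mouse as a block and 2 without mouse 7. Between the genotypes, RSG-treated macrophages differed by 0.37 (log2, Pparg fl/- LysCre minus Pparg+/- LysCre), less than the SD of 1.54 within the Pparg+/- LysCre group.

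Ordered by mean log2 level, the 8 groups ran from RSG-treated Pparg+/- LysCre iDCs (11.81) to RSG-treated Pparg fl/- LysCre iDCs (9.11), RSG-treated Pparg fl/- LysCre macrophages (7.53), RSG-treated Pparg+/- LysCre macrophages (7.16), vehicle-treated Pparg fl/- LysCre iDCs (7.16), vehicle-treated Pparg fl/- LysCre macrophages (6.74), vehicle-treated Pparg+/- LysCre iDCs (6.49) and vehicle-treated Pparg+/- LysCre macrophages (6.48). Only the first neighbours in this order had ranges that did not overlap. From the second group on, every neighbouring pair overlapped, and the lower 6 groups hold 1 detected array, so their order is not informative.

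**Figure D3:**
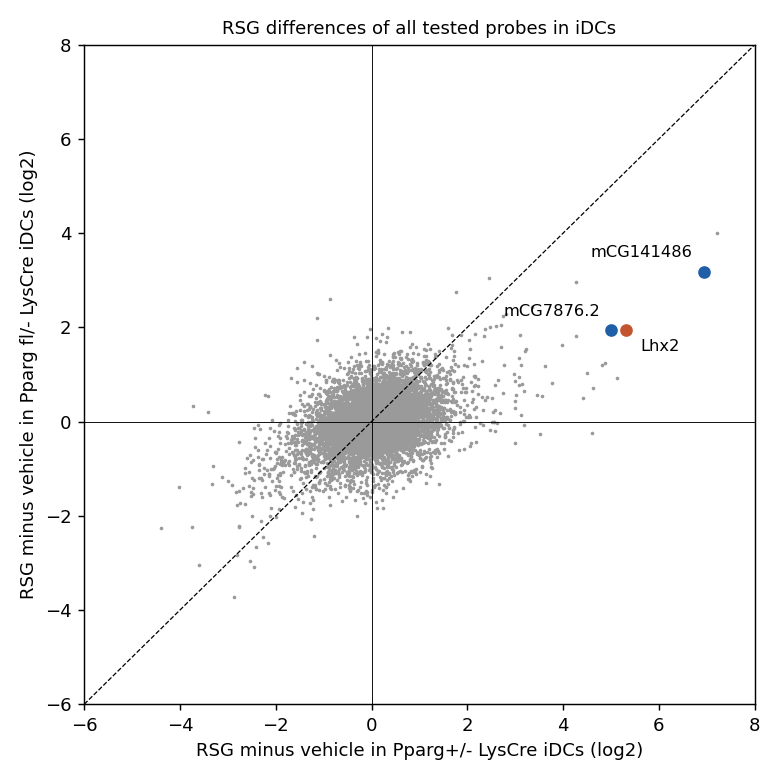
RSG minus vehicle on the log2 scale in Pparg+/- LysCre iDCs (x axis) and Pparg fl/- LysCre iDCs (y axis) for the 16620 tested probes (grey), with equality as a dashed line. Lhx2 (5.32 and 1.95) and the gene models mCG7876.2 (5.01 and 1.94) and mCG141486 (6.93 and 3.18) lie to the right of the main cloud and below the line.

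The probes most like Lhx2 were found by Pearson's r of normalized log2 values over the 32 arrays, among the 16619 other tested probes. These points share mice and normalization, most Lhx2 values are noise, and r is a description. The median r over all probes was -0.02, 762 probes exceeded 0.5, and 12 exceeded 0.8. The highest, mCG7876.2 (probe 855922, r = 0.91) and mCG141486 (probe 627350, r = 0.90), are gene models without a symbol, as are all of the 10 highest. Spearman's rho over the same arrays was lower, at 0.55 and 0.61.

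These 2 probes were, like Lhx2, detected in iDCs with RSG and not with vehicle. They were picked for their r with Lhx2 over these same arrays. A pattern shared with Lhx2, in mice 5 to 8 as well, therefore follows from the choice. mCG7876.2 was undetected on all 8 vehicle iDC arrays and detected with RSG on 4 Pparg+/- LysCre and 3 Pparg fl/- LysCre arrays. Its mean RSG difference was 5.01 ± 0.25 in Pparg+/- LysCre and 1.94 ± 1.30 in Pparg fl/- LysCre iDCs (log2, SD, n = 4 each). mCG141486 differed by 6.93 ± 1.00 and 3.18 ± 1.31 (log2, SD, n = 4 each) and was detected on all 8 RSG-treated iDC arrays. The vehicle values behind these differences are noise levels, so the differences are as listed and no fold is given. In both, mouse 5 stood highest of the Pparg fl/- LysCre arrays with RSG, at 12.26 against 8.505 to 10.00 for mCG7876.2 and at 13.44 against 9.21 to 11.18 for mCG141486. In both it lay below the Pparg+/- LysCre range, whose lowest values were 12.58 and 13.79, as it did for Lhx2. Before normalization the distance was wider, with linear signals of 2822 in mouse 5 against at least 5024 in Pparg+/- LysCre mice for mCG7876.2, and 6361 against at least 14742 for mCG141486. The high normalized level of mouse 5 was not particular to these probes. It was also the highest Pparg fl/- LysCre array with RSG for Aldh3a1, Aldh3a2, Sowahc and each Cebpb probe described below, but not for Ramp1. In macrophages mCG7876.2 was detected on no array, and mCG141486 on 1 vehicle-treated array.

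**Figure D4:**
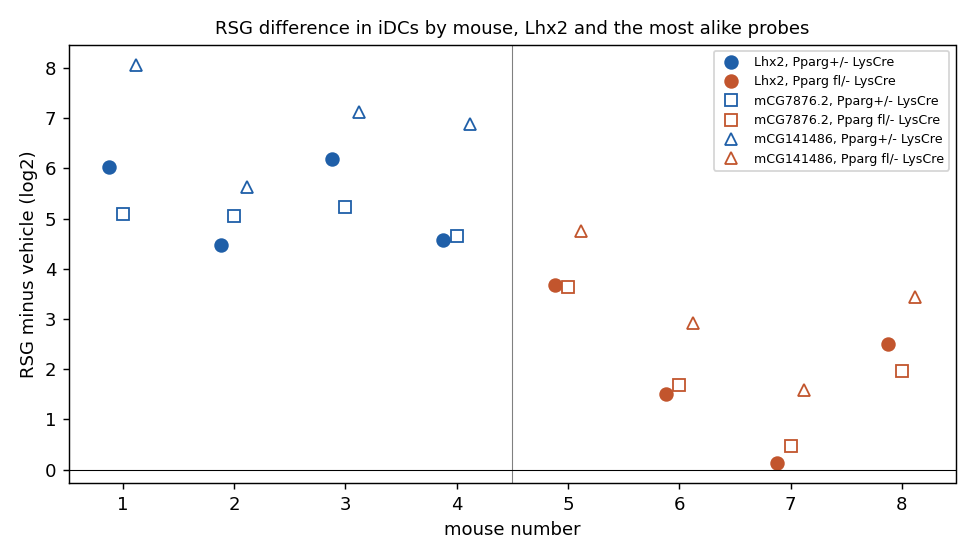
RSG minus vehicle on the log2 scale in iDCs (y axis) for each mouse (x axis), for Lhx2 (filled circles), mCG7876.2 (open squares) and mCG141486 (open triangles), with Pparg+/- LysCre mice 1 to 4 in blue and Pparg fl/- LysCre mice 5 to 8 in orange. For all 3 probes, mouse 5 is the highest and mouse 7 the lowest of mice 5 to 8. The gene models were picked for their r with Lhx2 over these same arrays.

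Of the 158 tested probes with a symbol, 6 exceeded an r of 0.5 with Lhx2, and they represent 5 genes. This share was no larger than that over all probes, where 762 of 16619 exceeded 0.5. The 6 probes are described because they carry a symbol. Aldh3a1, a cytosolic aldehyde dehydrogenase, had the highest r at 0.68. Aldh3a1 was detected in 4 of 4 RSG-treated Pparg+/- LysCre iDC arrays against 1 of 4 with vehicle. In Pparg fl/- LysCre iDCs it was detected in 2 of 4 arrays with RSG and 0 of 4 with vehicle. Its listed log2 difference, largely against noise levels, was 1.56 ± 0.51 in Pparg+/- LysCre iDCs and 0.61 ± 0.96 in Pparg fl/- LysCre iDCs (SD, n = 4 each). Aldh3a2, a fatty aldehyde dehydrogenase of the endoplasmic reticulum, had an r of 0.62 but a much narrower range, with a difference of 0.22 ± 0.25 in Pparg+/- LysCre iDCs (SD, n = 4). By Spearman's rho the 6 probes ran from 0.42 (Aldh3a2) to 0.55 (Sowahc), and median scaling lowered the r of Aldh3a2 to 0.40.

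Sowahc (r = 0.64) differed with RSG by 0.44 ± 0.13 in Pparg+/- LysCre and 0.32 ± 0.04 in Pparg fl/- LysCre iDCs (SD, n = 4 each), with all 8 mice above 0. Ramp1, which pairs with the calcitonin receptor-like receptor to form the CGRP receptor, had an r of 0.55. It was detected on all 4 vehicle-treated Pparg+/- LysCre iDC arrays, unlike Lhx2, and differed with RSG by 0.89 ± 1.13 (SD, n = 4). The r of 0.55 for Ramp1 was the lowest kept, and the next named probe, Lrrk1, had 0.49. By Pearson's r, Aldh3a1 ranked 103rd and Ramp1 470th among all probes, while by Spearman's rho the named probes came close to the leading gene models.

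Cebpb, the gene of the transcription factor C/EBPβ that acts in myeloid cells and upstream of Pparg in adipocytes, was represented by 2 probes, at an r of 0.64 (probe 450590) and 0.56 (probe 640455). Both were detected on all 32 arrays. In RSG-treated iDCs probe 450590 lay between 20.29 and 20.46 in Pparg+/- LysCre mice and between 19.34 and 20.09 in Pparg fl/- LysCre mice, without overlap. It was lower in Pparg fl/- LysCre cells by limma (log2 difference -0.76, SE 0.20, adjusted p = 0.035), in a comparison that called 6.65% of the tested probes in either direction. The call did not hold when any of mice 1, 2, 3, 4, 6, 7 or 8 was left out (adjusted p from 0.075 to 0.12), while without mouse 5 the adjusted p was 0.00016. Probe 640455 of the same gene had a difference of -0.49 (SE 0.21, limma adjusted p = 0.14) and was not called. Under median scaling of each array it was called as well (-0.69, limma adjusted p = 0.047). Vehicle-treated iDCs also differed between the genotypes. For probe 450590 the means were 20.06 in Pparg+/- LysCre and 19.65 in Pparg fl/- LysCre mice, with overlap. For probe 640455 they were 15.97 (15.80 to 16.12) and 15.33 (15.10 to 15.68), without overlap. Whether RSG changed the genotype difference was not tested. With RSG, probe 640455 differed by 0.62, 0.65, 0.72 and 0.57 (log2) in macrophages of Pparg+/- LysCre mice 1 to 4, all above 0. It was not called by the limma fit without a block (difference 0.64, SE 0.18, adjusted p = 0.12) and was called with the mouse as a block (adjusted p = 0.0054). In Pparg fl/- LysCre macrophages it differed by 0.20 to 0.50 and was called in neither fit. Probe 450590 was called for RSG in no genotype or cell type, with or without the block.

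The other matched list gene was Hba-a1, an alpha-globin gene of red cell precursors and 1 of 5 erythroid markers, of which the others matched no probe. Its signal did not follow Lhx2. In iDCs it averaged 9.99 ± 0.65 with vehicle and 9.16 ± 0.97 with RSG in Pparg+/- LysCre mice, and 9.91 ± 1.08 and 9.84 ± 1.76 in Pparg fl/- LysCre mice (log2, SD, n = 4 each), with overlap throughout. In RSG-treated macrophages it was detected on 3 of 4 Pparg fl/- LysCre arrays and none of the 4 Pparg+/- LysCre arrays, and was higher in Pparg fl/- LysCre cells (log2 difference 3.43 against noise levels, SE 0.89, limma adjusted p = 0.025). Vehicle-treated macrophages showed the same detection, on 3 of 4 against 0 of 4 arrays, with means of 11.47 ± 1.93 and 8.14 ± 0.16 (log2, SD, n = 4 each). The call in RSG-treated cells was lost without any of the mice other than mouse 5 (adjusted p from 0.059 to 0.088) and had an adjusted p of 2.8e-07 without mouse 5. In this comparison 9.33% of tested probes were called in either direction.

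The 5 annotated neighbours of Lhx2 on each side, including Crb2, Dennd1a and Nek6, had no matched probe, so the signal of the surrounding locus was not analysed here. Of the 5 named genes with an r over 0.5, 4 had a RefSeq promoter window, and the PPAR:RXR direct repeat and its single element had no match in any of these. GC boxes were found in the windows of Cebpb (5), Aldh3a2 (1) and Sowahc (1), and not in that of Ramp1.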

How the data were processed

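Per the labels and file headers, the authors deposited for each of 32 Applied Biosystems arrays a background-corrected linear signal intensity, its standard deviation, an S/N score and an assay-normalized signal, and for the whole series a table of ratios. The methods describe other arrays, and the software behind these files is not given in the sources used here. The deposited ratio table held each array-scaled signal over the probe's median, with 0.0745% of values more than 0.01 (log2) off that reading, and its column medians ran from 0.951 to 1.06. On 35.7% to 43.8% of probes per array, those at an S/N of 1 or less, the signal equals its standard deviation. No measurement column was left unassigned.

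Signals were log2 transformed and quantile normalized. Probes with an S/N of at least 3 on at least 3 of 4 arrays of a group were tested with limma 3.58.1 (R 4.3.3), with a mean per group over the 16 arrays of a cell type, with calls at 1.5-fold or more and an adjusted p (Benjamini-Hochberg) under 0.05. Tested on simulated data with 200 of 16620 probes changed by 1 (log2), the fit recovered 57% for RSG in Pparg+/- LysCre iDCs, with 10 false calls, and 50% for RSG in Pparg fl/- LysCre iDCs and in Pparg fl/- LysCre macrophages, with 4 false calls each. The simulated noise was normal, independent between arrays and equal in spread over the groups of a probe. It held no likeness within a mouse or scan day, so these counts do not give the error in the data. Python 3.11.15, numpy 2.4.6 and pandas 2.3.3 did the rest.

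Arrays of a mouse share its number. Their deviations from group means correlated at a median of 0.284 within a cell type (range 0.00953 to 0.623), against -0.0708 between mice, and the reported fit has no block for the mouse. Its p-values rest on a spread within groups, pooled over the 4 groups of a cell type, and treat the arrays of a mouse as independent. For RSG they therefore do not measure the spread of the differences within mice.

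Lhx2, the lists and the rules were chosen with earlier results of these data known. Named were Lhx2, matching list genes, at most 10 named probes with r over 0.5, and 2 unnamed probes. Alternatives were other scalings, an offset, other filters, the methods' t-test, other arrays in the fit, blocks and leaving out each mouse. The floor at 3 standard deviations and the likeness within the 16 iDC arrays were added after seeing the data. Promoter windows and symbols come from RefSeq (GRCm38.p6).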

Additional observations from a re-analysis of the deposited data

Results flagged for a closer look

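Among 36 sets of 4 values examined for a sample far from the others, 2 stood out, and chance gives about 1 in 20. The first is the S/N of Lhx2 in RSG-treated Pparg+/- LysCre macrophages, where mouse 4 at 3.14 lay far above mice 1 to 3 (0.25, 0.14 and -0.02), with a gap of 0.915 of the range. The second is Aldh3a2 in RSG-treated Pparg fl/- LysCre iDCs, where mouse 5 at 12.89 lay above the other mice (12.64 to 12.65), with a gap of 0.960 of the range.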

How the results depend on the processing

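The Lhx2 RSG difference in Pparg+/- LysCre iDCs was 5.32, and an offset at the 10th percentile moved it to 4.26. Under the other scalings, signal columns and mouse sets it stayed within 1 SD, and no Lhx2 difference in iDCs turned direction. Leaving out 1 mouse gave 5.03 to 5.602 for RSG in Pparg+/- LysCre iDCs, 1.38 to 2.56 in Pparg fl/- LysCre iDCs, 0.16 to 1.21 in Pparg+/- LysCre macrophages, 0.66 to 1.04 in Pparg fl/- LysCre macrophages, -3.43 to -2.16 for genotype in RSG-treated iDCs and -0.13 (without mouse 2) to 1.07 in RSG-treated macrophages. With the floor at 3 standard deviations the RSG bound in Pparg+/- LysCre iDCs was 15.2-fold, and the ratio in Pparg fl/- LysCre iDCs 1.27-fold. Over the lowest detected level the ratios were 30.7-fold and 3.64-fold, and neither is a strict bound.

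With the mouse as a replicate block the RSG differences of Lhx2 were unchanged by construction (5.32 and 1.95 in iDCs), and the counts of called probes became 494 (199 without the block) for RSG in macrophages of Pparg+/- LysCre mice, 5 (against 0) in those of Pparg fl/- LysCre mice and 202 (against 115) in Pparg fl/- LysCre iDCs. For RSG in Pparg+/- LysCre macrophages, no detection filter gave 65 and the 8 arrays alone 314. For RSG in Pparg fl/- LysCre iDCs, median scaling gave 69, no filter 35, the methods' t-test 0 and the 8 arrays alone 6. For genotype in RSG-treated macrophages, no filter gave 647 calls (against 1550), the t-test 187 and the 8 arrays 690. For genotype in RSG-treated iDCs they gave 407, 1 and 46 (against 1106). Leaving out 1 mouse gave 50 to 395 for RSG in Pparg+/- LysCre macrophages, 0 to 2 in Pparg fl/- LysCre macrophages, 588 to 1266 (against 999) in Pparg+/- LysCre iDCs, 27 to 94 in Pparg fl/- LysCre iDCs, and for genotype 504 to 3385 in macrophages and 218 to 2654 in iDCs. Median scaling put the median log2 difference over the tested probes at -0.18 (-0.03 otherwise) for RSG in macrophages of Pparg+/- LysCre mice, at -0.13 (-0.01 otherwise) in those of Pparg fl/- LysCre mice, and at -0.16 (-0.03 otherwise) for genotype in RSG-treated iDCs. The causes were not tested. The call of Cebpb probe 450590 for genotype was lost with the assay-normalized signal, no filter, the t-test or the 8 arrays alone (adjusted p from 0.060 to 0.11), and that of Hba-a1 with the last 3 of these (0.056 to 0.10).

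Of the 6 named probes most like Lhx2, 3 were among the top 6 over the 8 group means and 1 within the 16 iDC arrays. Values below an S/N of 3 are noise levels and limit every Lhx2 comparison outside RSG-treated iDCs.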
